A study of Homo sapiens with 2 samples.

Results

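The genes that drive chromosome segregation and cell division were examined in Ca9-22 cells, a line from a carcinoma of the gingiva, carrying either an empty vector or a RUNX2 vector. The set held 48 genes, chosen by name as genes of mitosis, the spindle and the kinetochore, and a gene was represented by probe sets whose platform annotation gave that gene alone. All 48 had such probe sets, 87 in all, and all 48 were measured, out of 12729 measured genes on the arrays. A probe set counted as measured if it lay above an array's median on either array, and 71 of the 87 did. The brightest of a gene's measured probe sets, by mean log2 level, represents the gene, and the others are given beside it where they bear on a value. Wherever a pair of levels is given, the empty vector array comes first and the array labelled RUNX2, scaled to it, second, and the value in brackets after it is the log2 ratio of the second over the first.

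Both groups were stably transduced and selected with blasticidin, so the empty vector cells share the transduction and the drug with the RUNX2 cells, and both were grown without any further agent named in the labels. Total RNA was labelled as biotinylated cRNA and hybridised to 1 array per group. There are therefore no replicates, no test between the groups was possible, and differences are sorted by fixed sizes of 1.3-fold, 1.5-fold and 2-fold. The labels do not say whether the transduced cells were 1 clone or a pool. RUNX2 is a runt-domain transcription factor best known from bone formation, and the comparison addresses which transcripts differ when it is expressed in this oral cancer line.

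Mitosis is run by a wave of transcription late in the cell cycle. The retinoblastoma-related DREAM complex holds these genes silent in resting and early cycling cells, and MYBL2 with the MuvB core and then FOXM1 switches them on in G2, through a promoter element called the cell cycle genes homology region (CHR) and nearby CCAAT boxes bound by NF-Y. Their products build the spindle, tie it to the kinetochores, hold anaphase back until every chromosome is attached, and cut the cell in 2. An earlier wave, under the control of E2F factors, holds the G1/S and DNA replication genes.

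The RUNX2 probe sets did not settle the labels. Of 6, 3 were measured, and with the RUNX2 label the brightest was 4.03-fold lower and the others were 4.17-fold and 3.47-fold higher. Every direction below rests on the labels. Squamous markers were present, with all 5 that had a probe set of their own measured and their levels, 1 probe set a gene, summing to 32332 and 41919.9. None of 6 leukocyte markers was measured, nor was the fibroblast gene DCN or the endothelial gene CDH5. Of 8 fibroblast markers 2 were measured, COL1A1 and THY1 (71 and 49.3, near the floor). COL1A1 read 1937 and 1553 in its brightest probe set. Its other measured probe sets were far dimmer, from 200 and 152 down to 71.4 and 59.3. The levels of all 8, unmeasured ones included, summed to 2135 and 1735, most of it from the brightest COL1A1 probe set. Of 5 endothelial markers 2 were measured, both near the floor, PECAM1 (69.4 and 55.5) and VWF (75 and 55.2). All 5 summed to 170.4 and 135, while the 6 leukocyte markers summed to 162 and 128. The part of other cells in the values below was not tested.

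As a group, the 48 mitosis genes differed little between the arrays. Their median log2 ratio, array labelled RUNX2 over empty vector, was -0.13, beside -0.06 for all 12729 measured genes. Of the 48, 33 lay below 0 (68.8%, against 57.3% of all measured genes). The 33 include PLK1, which lies at the floor and for which no difference can be read. The middle of the set, from the lower to the upper quartile, ran from -0.22 to 0.04, and the SD was 0.27, against 0.42 over all measured genes. At 1.5-fold, 1 member was higher (2.08%, where 5.77% of all measured genes were) and 0 were lower (where 6.88% of all were). At 1.3-fold, 3 were higher (6.25%, against 12.4% of all) and 4 were lower (8.33%, against 16.6% of all). At 2-fold, 0 members passed in either direction, against 1.42% of all genes higher and 1.47% lower. The shares of members past each size were thus below those of all measured genes in both directions. The genes compared were not matched to the members by level.

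Probe sets of the same gene give the only measure of technical spread here. Among the 6165 genes that had several measured probe sets, log2 ratios within a gene had an SD of 0.29, and within the 19 members with 2 or more it was 0.16. This is a spread within arrays and not a replicate error. The ratios of 35 members lay within 0.29 of 0, while 5 lay above and 8 below. In 14 of the 19 genes all measured probe sets went the same way, and the 5 in which they did not, CCNA2, CDK1, AURKB, BIRC5 and NUSAP1, are given with both signs.

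**Figure D1:**
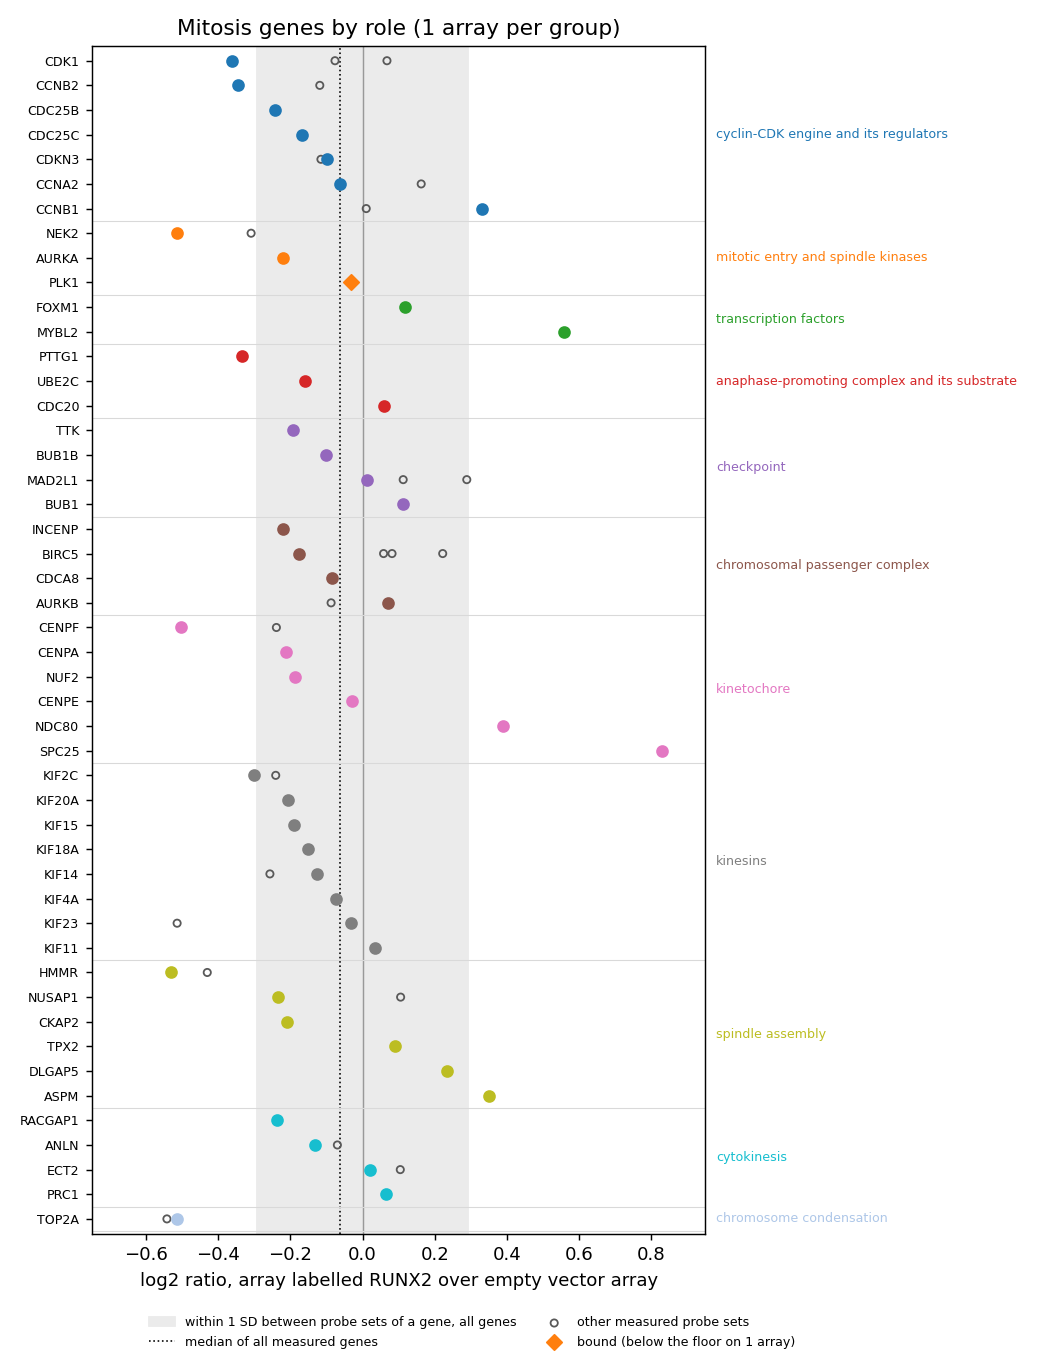
Log2 ratio (x axis) of the 48 mitosis genes, grouped by role (y axis); filled points are the probe set that stands for a gene, open circles its other measured probe sets, the diamond PLK1, whose ratio is a bound, and the grey band 1 SD between probe sets of a gene over all genes (0.29). Of the 48, 35 lie in the band, SPC25 stands highest at 0.83 and HMMR lowest at -0.53.

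Promoters of the genes at both ends of the range are shown here because the late cell cycle wave is defined by promoter elements. SPC25 (log2 ratio 0.83) and MYBL2 (0.56) stood highest, and HMMR (-0.53) and NEK2 (-0.51) lowest among the 41 members matched to RefSeq promoters of GRCh38.p14. Each runs from 250 bases before to 50 bases after the annotated transcription start. The promoters are those of SPC25 (chr2:168890381-168890680, minus strand), MYBL2 (chr20:43666864-43667163, plus strand), HMMR (chr5:163460382-163460681, plus strand) and NEK2 (chr1:211675572-211675871, minus strand). Capitals mark the CHR (TTTGAA), the CCAAT box (CCAAT) and an E2F core (GGCGGGA), each on either strand. HMMR has 2 CHR matches in direct succession and 5 CCAAT matches, 2 of which overlap. SPC25 has 2 matches of each and 1 E2F core, NEK2 has 2 CCAAT matches and 1 E2F core, and MYBL2 has an E2F core alone. These sequences read as follows.
SPC25: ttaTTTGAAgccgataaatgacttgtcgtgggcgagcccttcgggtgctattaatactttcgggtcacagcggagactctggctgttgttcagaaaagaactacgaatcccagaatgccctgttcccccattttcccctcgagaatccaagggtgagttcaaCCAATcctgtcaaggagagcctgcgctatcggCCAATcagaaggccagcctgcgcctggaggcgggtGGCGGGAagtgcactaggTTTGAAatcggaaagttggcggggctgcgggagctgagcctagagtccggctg
MYBL2: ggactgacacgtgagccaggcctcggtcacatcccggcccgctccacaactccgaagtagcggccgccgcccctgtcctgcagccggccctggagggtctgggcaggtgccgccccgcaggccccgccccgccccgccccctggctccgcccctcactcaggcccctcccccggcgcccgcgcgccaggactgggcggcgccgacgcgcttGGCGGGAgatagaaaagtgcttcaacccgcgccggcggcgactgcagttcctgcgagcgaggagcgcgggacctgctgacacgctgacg
HMMR: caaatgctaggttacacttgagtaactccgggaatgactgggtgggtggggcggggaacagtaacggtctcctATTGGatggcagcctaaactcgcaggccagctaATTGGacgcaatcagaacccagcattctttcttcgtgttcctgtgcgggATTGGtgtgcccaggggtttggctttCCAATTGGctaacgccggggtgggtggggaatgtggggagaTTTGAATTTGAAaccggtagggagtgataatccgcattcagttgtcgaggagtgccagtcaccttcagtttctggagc
NEK2: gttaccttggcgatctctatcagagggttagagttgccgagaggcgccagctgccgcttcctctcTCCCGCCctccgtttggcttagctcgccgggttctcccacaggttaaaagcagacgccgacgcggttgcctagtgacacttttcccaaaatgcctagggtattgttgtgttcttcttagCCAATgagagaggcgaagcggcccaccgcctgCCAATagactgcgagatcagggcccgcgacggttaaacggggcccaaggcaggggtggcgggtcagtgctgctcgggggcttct

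Over the set, the promoter elements were common. A CHR match stood in 28 of 41 member promoters (68.3%), against 15.4% of all 27305 promoters of the same length and 2 of 44 promoters of G1/S and replication genes (4.55%). A CCAAT match stood in 30 of 41 (73.2%), against 35.7% of all promoters and 24 of 44 G1/S promoters (54.5%). Promoters with 2 or more numbered 19 of 41 (46.3%), against 11.3% of all and 14 of the 44 G1/S promoters (31.8%). CHR and CCAAT occurred together in 23 of 41 member promoters (56.1%), in 6.08% of all promoters and in 1 of the 44 G1/S promoters. The E2F core, a motif added after the values were seen, was more frequent in the G1/S genes, with 23 of 44 (52.3%), than in the members, with 12 of 41 (29.3%), and stood in 15.5% of all promoters. A runt-type match (TGTGGT or TGCGGT, either strand), the kind of sequence RUNX proteins bind, stood in 8 of 41 member promoters (19.5%), close to the 19.4% of all promoters. Motifs were counted separately, also where matches overlap, and a match describes these letters, not a shown binding site. The median log2 ratio was -0.10 for the 28 members with a CHR match, from -0.53 to 0.83, and -0.17 for the 13 without, from -0.51 to 0.56. With any CCAAT match the median was -0.08 over 30 members, and without it -0.17 over 11. With and without an E2F core the medians were -0.09 and -0.13. For 2 or more CCAAT matches the order was the other way, with -0.21 for the 19 members that had them and -0.09 for the 22 that did not. With and without a runt-type match the medians were -0.14 and -0.10, and the ranges overlapped for each motif.

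**Figure D2:**
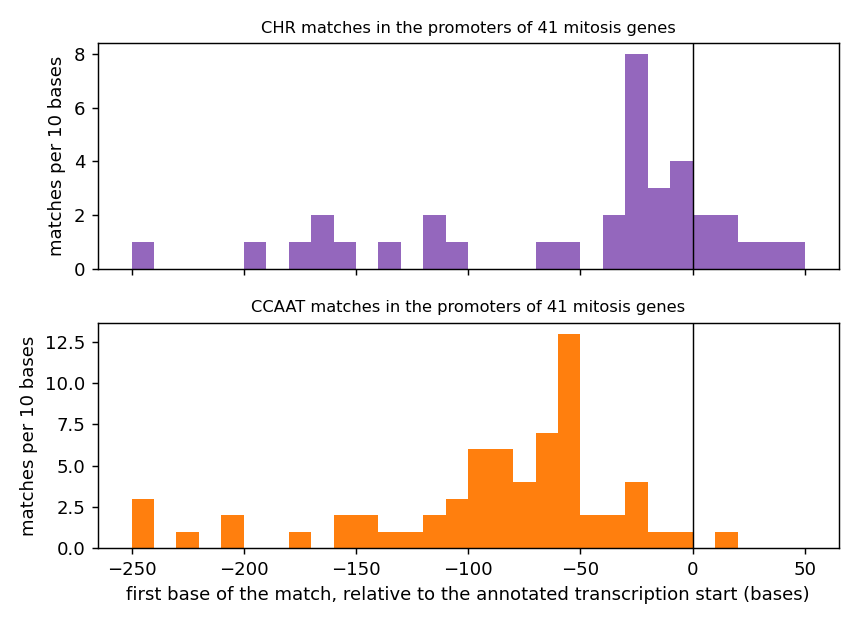
Number of CHR matches (upper panel, 36 in 28 promoters) and CCAAT matches (lower panel, 65 in 30 promoters) per 10 bases (y axis) against the position of their first base relative to the annotated start (x axis, bases) in 41 mitosis gene promoters. CHR matches gather near the start, with a median position of -27, and CCAAT matches lie further upstream, with a median of -73.

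The engine of mitotic entry is CDK1 with its A and B cyclins. CDK1 itself read 2183 and 1698 (-0.36), but its other measured probe sets had -0.08 and 0.07. The B cyclins went apart in their brightest probe sets. CCNB1 read 710.4 and 894 (0.33, with 0.01 in the other probe set), and CCNB2 read 1218 and 959 (-0.34, with -0.12 in the other). Cyclin A2, CCNA2, which acts in S phase and early mitosis, read 441 and 422 (-0.06, and 0.16 in the other probe set). The phosphatases that remove the inhibitory phosphates from CDK1 were both slightly lower, CDC25B at 315 and 267 (-0.24) and CDC25C at 103 and 91.9 (-0.17). CDKN3, a phosphatase that dephosphorylates CDK proteins, read 773 and 721 (-0.10). The 7 genes had a median of -0.17, with 6 below 0, where 57.3% of all measured genes were. Of the 7, 0 passed 1.3-fold, where 12.4% of all genes were higher and 16.6% lower.

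Among the kinases of mitotic entry and spindle formation, NEK2, which separates the centrosomes, was 1.43-fold lower, from 617 to 432, and its other probe set had a log2 ratio of -0.31. Both probe sets of AURKA, the centrosome and spindle pole kinase, read lower by the same amount, 744 and 639 in the brighter (-0.22) and -0.22 in the other. PLK1, the polo-like kinase of mitosis, had its single probe set at the detection limit used here, at 53.9 and 54 where the medians of the arrays were 55.3 and 51.8, so no difference can be read for it. Both transcription factors of the late wave in the set had ratios above 0. MYBL2, which is itself an E2F target and partners the MuvB core, read 169 and 249, 1.47-fold higher, and FOXM1, a forkhead factor of G2 genes, read 431 and 467 (0.12). Each of these has 1 measured probe set.

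The spindle assembly checkpoint and the machinery it restrains showed small ratios. BUB1, a kinetochore kinase, read 209 and 226 (0.11), the pseudokinase BUB1B, part of the complex that inhibits CDC20, read 842 and 786 (-0.10), and TTK, the kinase that starts the checkpoint signal, read 429 and 376 (-0.19). MAD2L1, which is converted to its active form at unattached kinetochores, read 1284 and 1296 (0.01, with 0.11 and 0.29 in other probe sets). The 4 checkpoint genes had a median of -0.04, with 2 genes on each side of 0, and the median was above 0 in 5 of 11 alternatives. It was 0.01 on the deposited scale, 0.05 with equal medians, 0.01 with the mean over probe sets, 0.01 without _x_at and _s_at probe sets, and 0.04 with AURKB and CDC20 counted in. CDC20, the activator of the anaphase-promoting complex that the checkpoint blocks, read 534 and 556 (0.06), and its E2 enzyme UBE2C read 1824 and 1634 (-0.16). Securin, PTTG1, whose destruction frees separase, was 1.26-fold lower, from 3925 to 3116, in a single probe set open to cross-matching (_x_at).

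The chromosomal passenger complex corrects faulty attachments and later acts at the midzone. AURKB, its kinase, read 135 and 142 (0.07, with -0.09 in a probe set near the floor), and BIRC5, survivin, read 900.0 and 796 in its brightest probe set (-0.18), while 3 others had 0.06, 0.08 and 0.22. Borealin, CDCA8, read 246 and 232 (-0.09), and the scaffold INCENP, near the floor, read 73.1 and 62.7 (-0.22). Their median was -0.13. It was 0.069, with BIRC5 then at 0.22 in another probe set, over the 3 left once probe sets open to cross-matching (_x_at, _s_at) were dropped.

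The kinetochore genes were the widest of the role groups, spanning -0.50 to 0.83 with a median of -0.11 over 6, which turned to 0.18 over the 4 left once probe sets open to cross-matching (_x_at, _s_at) were dropped. SPC25, a subunit of the NDC80 complex, which grips the microtubule end, read 98.9 and 176, 1.78-fold higher and the member past 1.5-fold. With an offset added in place of a floor its log2 ratio was 0.56, short of 1.5-fold. NDC80 of the same complex read 454 and 595 (0.39), and NUF2, its coiled-coil partner, read 571 and 502 (-0.19). SPC24, the subunit that pairs with SPC25 and is not a member, read 129 and 122 (-0.08), so the 4 subunits of this complex did not go together. CENPF, a large coiled-coil protein of the outer kinetochore that appears in G2, was 1.42-fold lower, from 572 to 404, with a log2 ratio of -0.24 in its other measured probe set. The centromeric histone CENPA read 307 and 264 (-0.21), and CENPE, a kinesin that carries chromosomes to the spindle equator, read 426 and 417 (-0.03).

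The kinesins lay close together, from -0.30 to 0.03, with a median of -0.14 and 7 of 8 below 0, where 57.3% of all measured genes were. Of the 8, 0 passed 1.3-fold, where 12.4% of all genes were higher and 16.6% lower. KIF2C, which takes microtubules apart at centromeres, read 622 and 506 (-0.30, with -0.24 in its other probe set). KIF20A, of the central spindle, read 397 and 344 (-0.21), KIF15, a spindle motor, 125 and 109 (-0.19), and KIF18A, which damps chromosome movements, 147 and 132 (-0.15). KIF14, a motor of cytokinesis, read 332 and 304 (-0.13, and -0.26 in the other probe set), and the chromokinesin KIF4A read 265 and 252 (-0.07). KIF11, the motor that pushes the spindle poles apart, was the member above 0, at 361 and 369.6 (0.03). KIF23, of the centralspindlin complex, read 378 and 369.7 (-0.03), although a further probe set had -0.51, from 130 to 91.2.

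The largest difference downwards among the 48 was in a spindle gene. HMMR, which organises spindle microtubules with TPX2, read 1799 and 1246, 1.44-fold lower, and its other probe set went from 637 to 473 (-0.43). The other spindle genes went both ways. NUSAP1, which bundles spindle microtubules, read 1889 and 1606 (-0.23, but 0.11 in the other probe set), and CKAP2, a spindle microtubule protein, read 1111 and 959.8 (-0.21). TPX2, the activator of AURKA, read 455 and 484 (0.09), DLGAP5, which stabilises kinetochore fibres, 383 and 450.1 (0.23), and the spindle pole protein ASPM 301 and 383 (0.35). The 6 had a median of -0.06, which turned to 0.03 with equal medians and 0.01 with the mean over probe sets. TOP2A, the topoisomerase that untangles chromosomes before they separate, was 1.43-fold lower, from 1690.0 to 1184, and its other measured probe set had nearly the same log2 ratio, -0.54 beside -0.51.

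Genes of cytokinesis were nearly level. RACGAP1, the partner of KIF23 in centralspindlin, read 1133 and 961 (-0.24), and the cleavage furrow scaffold ANLN read 1129 and 1029.8 (-0.13, and -0.07 in the other probe set). ECT2, the exchange factor that activates RhoA at the furrow, read 868 and 880.3 (0.02, and 0.10 in the other), and PRC1, which bundles midzone microtubules, read 1088 and 1137 (0.06). Their median of -0.06 turned to 0.04 with equal medians. Set side by side, the medians of the kinesin (-0.14), kinetochore (-0.11), checkpoint (-0.04) and cytokinesis (-0.06) groups lay between -0.14 and -0.04. With 1 array per group no order among them was tested, and the signs of the last 3 change under alternatives.

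**Figure D3:**
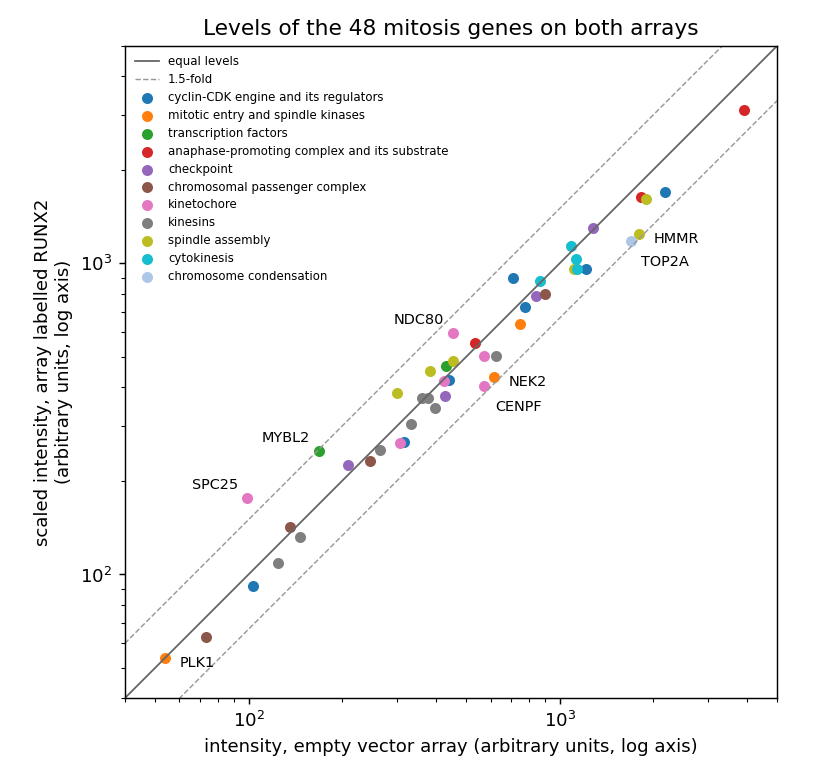
Intensity of the 48 mitosis genes on the empty vector array (x axis) and scaled intensity on the array labelled RUNX2 (y axis), both in arbitrary units on log axes, coloured by role, with lines at equality and at 1.5-fold. Members follow the line of equality over the whole range, with SPC25 beyond the upper 1.5-fold line and HMMR, TOP2A, NEK2 and CENPF close to the lower one.

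The 4 members past 1.3-fold downwards, HMMR, TOP2A, NEK2 and CENPF, each had a further measured probe set, and all of these were lower too, from -0.24 to -0.54. The 3 past it upwards, SPC25, MYBL2 and NDC80, have 1 measured probe set each, so they lack that check. Across the 48 members, log2 ratio and mean log2 level of the probe set had a Pearson r of -0.34, and without SPC25 and MYBL2, left out after their values were seen, r was -0.24 over 46. This is a description across genes of the same pair of arrays, which are not independent.

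Other genes of mitosis, 110 measured of 117 listed, had a median log2 ratio of 0.09. Of them, 25 passed 1.3-fold upwards (22.7%, against 12.4% of all measured genes) and 11 downwards (10%, against 16.6% of all). At 1.5-fold, 6 were higher (5.45%, against 5.77% of all) and 4 lower (3.64%, against 6.88% of all), so the higher share upwards was not seen at that size. Other kinetochore genes had a median of 0.17 over 27 and held both CENPI, of the inner kinetochore (58.2 and 102, 0.81, close to the floor of 55.3, and 0.44 with an offset in place of it), and SKA2, of the microtubule-binding SKA complex, which read 3129 and 1753 (-0.84, with -0.37 in the other probe set). Past 1.5-fold, 3 of the 27 were higher (11.1%, against 5.77% of all) and 2 lower (7.41%, close to the 6.88% of all). Besides CENPI and SKA2, these were ZWINT (0.76) and CENPW (0.60) upwards and CENPH (-0.62) downwards, named after their values were seen. Condensin and cohesin subunits, listed together with separase (ESPL1) and the cohesion factor CDCA5, had a median of 0.13 over 15. The condensin subunit NCAPG read 304 and 529 (0.80, with 0.91 in the other probe set), while the cohesin subunit STAG2 read 4765 and 3124 (-0.61, with -0.40 and -0.51 in others). Over all 110, ratios ran from -1.01 to 0.81, against -0.53 to 0.83 in the 48. The lowest was RBL2, from the list of DREAM and MMB subunits, which are regulators of mitosis genes. The next was SKA2 at -0.84.

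Genes that extend the checkpoint, the spindle and the kinases also went both ways, and the medians of the lists differed. The 5 other checkpoint genes had a median of 0.21, from BUB3 at -0.22 to TRIP13, which recycles MAD2, at 0.58. Further measured probe sets of BUB3 had -0.49, 0.28 and -0.59. The 7 other kinesins, of which KIF5B and KIF3A serve mainly in transport, had a median of 0.05. They ran from KIF3A at -0.21 (0.15 in its other probe set) to KIF2A at 0.38 (0.47 in its other). Other spindle and cytokinesis genes had a median of 0.10 over 15, from CKAP2L at -0.45 to TUBG1, gamma-tubulin, at 0.81. The kinases and cyclins outside the set had 0.13 over 13, from NEK6 at -0.51 (0.04 in its other probe set) to NEK7 at 0.55. Subunits and regulators of the anaphase-promoting complex had -0.01 over 14, from ANAPC13 at -0.56 to CDC26 at 0.29. Subunits of the DREAM and MMB complexes, with their E2F and NF-Y partners, had -0.10 over 13, and the related pocket proteins stood at both ends. RBL2, which represses cell cycle genes in resting cells, read 1741 and 867, 2.01-fold lower, with -0.45 in its other probe set, while RBL1 read 109 and 172 (0.66).

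**Figure D4:**
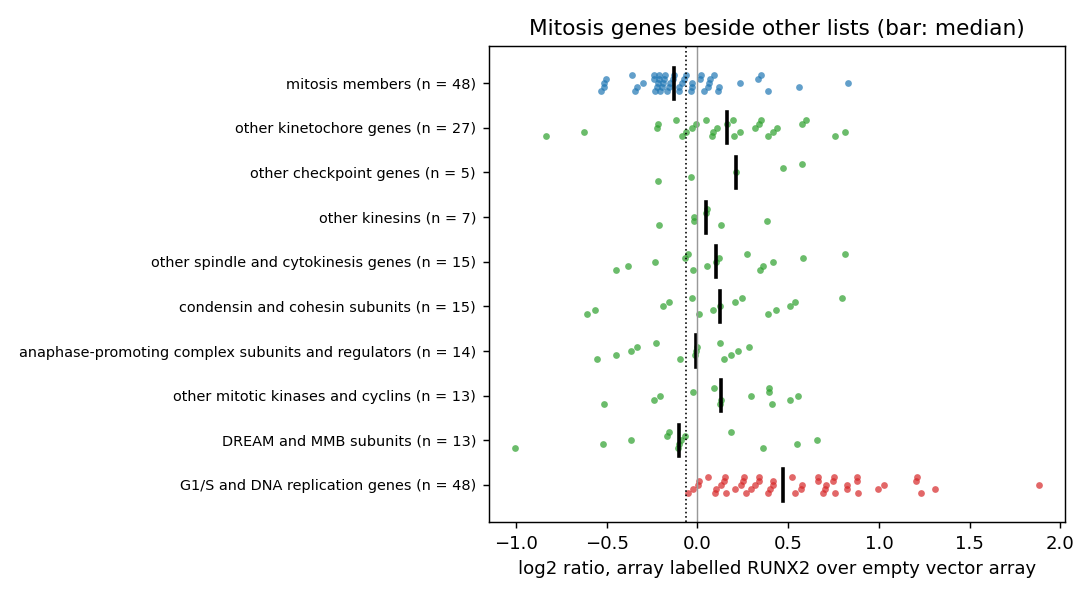
Log2 ratio (x axis) of each measured gene in the 48-gene mitosis set, 8 other mitosis lists and the G1/S and replication list (y axis), with a bar at each median and a dotted line at the median of all measured genes (-0.06). The G1/S and replication genes have a median of 0.47, and the mitosis set has -0.13.

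Genes of the earlier wave of the cell cycle had higher ratios than the mitosis genes, and the difference itself could not be tested with 1 array per group. The 48 measured G1/S and replication genes had a median log2 ratio of 0.47, 0.60 above that of the mitosis genes, and 20 of them were at least 1.5-fold higher (41.7%, where 5.77% of all genes and 2.08% of the mitosis genes were). Their ratios ran from DBF4 at -0.05 to CCNE2 at 1.88, and the latter was 0.94 with the floor raised to the 75th percentile, with a bound of 0.45 in its other probe set. MCM10 had 1.31 in its brightest probe set but 0.41 and 0.26 in the others, and RRM2 had 1.23 and 0.76, so the sets overlap between -0.05 and 0.83. In bulk RNA, a different share of cells in a phase and a different amount of transcript per cell cannot be told apart.

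**Figure D5:**
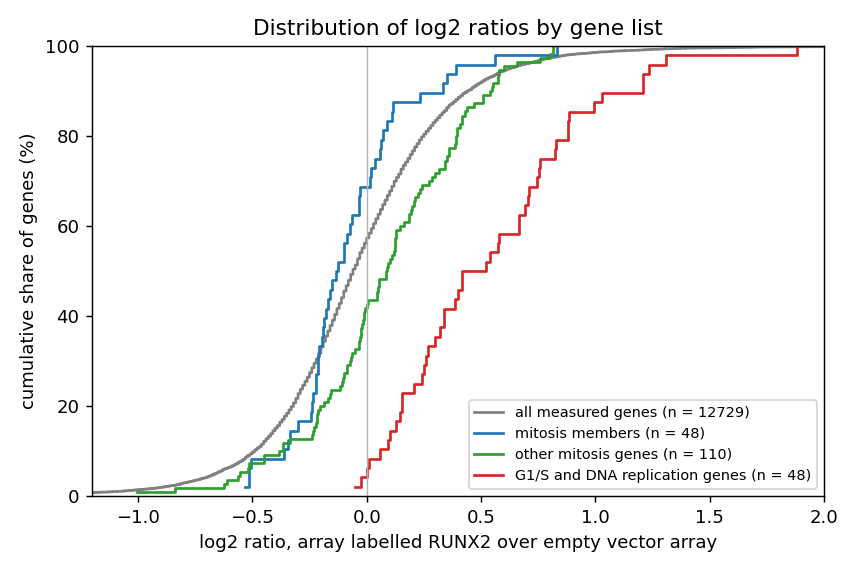
Cumulative share of genes in percent (y axis) up to each log2 ratio (x axis) for all 12729 measured genes, the 48 mitosis genes, 110 other mitosis genes and 48 G1/S and replication genes. The mitosis curve rises most steeply and just left of 0, and 68.8% of its genes lie anywhere below 0. The G1/S curve lies to the right of all others.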

How the data were processed

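RNA of 2 samples, 1 per group, was measured on Affymetrix arrays, per the labels' protocols. The authors deposited 1 linear intensity per probe set and array. The submitters' processing notes name MAS5, with no version or scaling target, so levels are in arbitrary units. Precision is limited by the number of arrays. Of 54675 probe sets, 62 controls were left out. A factor of 0.966 on the array labelled RUNX2 made the 2% trimmed means equal. Each array's median (55.3 and 51.8) served as its floor; values below it were raised to it, which makes the ratio a bound. Of the other 54613 probe sets, 41091 had 1 symbol, 1801 several and 11721 were not named; 41037 symbols were looked up by Entrez ID in RefSeq (GRCh38.p14), whose promoters are shown. Every member was named; of other lists, the highest and lowest genes. Members and lists were chosen with earlier results of these data known. Alternatives changed the scaling, floor, threshold and probe set choice. The code, in Python 3.11.15 with pandas 2.3.3, was tested on simulated data.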

Additional observations from a re-analysis of the deposited data

How the results depend on the processing

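No paired analysis was possible because each group holds 1 array. Over 10 alternatives of scaling, floor and probe set choice, the median of the mitosis genes stayed below 0, from -0.14 to -0.04, and the G1/S median stayed 0.46 to 0.66 above it, where 0.46 came from an offset in place of the floor. The ratios of HMMR, TOP2A, NEK2, CENPF, SPC25, MYBL2 and NDC80 kept their signs in every alternative that gave them a value. The number of members at least 1.5-fold higher, SPC25 alone as reported, was 2 on the deposited scale and 2 with equal medians, and 0 with the floor at the 75th percentile, where 41 members were measured, and 0 with the offset. At thresholds of 1.3-fold and 2-fold it was 3 and 0, and the number lower was 4 at 1.3-fold. Other group values moved by more than 0.1 as follows, and some of these alternatives change both the genes left and the probe set taken. Without probe sets ending in _x_at or _s_at, which left 33 members, the median became 0.18 for 4 kinetochore genes, 0.069 for 3 passenger complex genes and -0.22 for 4 spindle genes. A floor at the 75th percentile made it -0.37 for the 2 entry kinases left. With the mean over probe sets, the correlation of ratio and level was -0.20, and the cause was not tested. Signal near the floor limits PLK1, INCENP, CENPI and the dimmer probe set of AURKB.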

Other observations

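MKI67, the gene of the proliferation marker Ki-67, was not a member and has 4 measured probe sets, which did not go the same way. The brightest read 263 with the empty vector and 271 on the array labelled RUNX2 (log2 ratio 0.05), and the others had -0.34, 0.22 and 0.39.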
